A study of Mus musculus with 9 samples.

Results

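The genes described here are the NF-kB subunits *Nfkb1*, *Nfkb2*, *Rel*, *Rela* and *Relb*, the cytoplasmic inhibitors *Nfkbia* and *Nfkbie*, the nuclear IkB proteins *Nfkbid* and *Nfkbiz*, and the deubiquitinase gene *Tnfaip3*. They were taken by symbol from the deposited expression tables, where they are 10 of 22064 genes listed and of 18325 with values, and all 10 passed the filter on low counts. RNA was measured by bulk RNA-seq in lung neutrophils of female BALB/c mice (6 to 8 weeks old), sorted on CD45 and Ly6g protein after collagenase digestion. The Ly6Ghi MACRO and Ly6Glow MACRO groups came from lungs with macrometastases of 4T1-LM3, a lung-selected derivative of the 4T1 mouse mammary carcinoma line injected into the mammary fat pad, and the Ly6Ghi NL group came from normal lung without tumor. Each group had 3 libraries. The assignment of 3 libraries to normal lung rests on their titles, since their descriptions name the Ly6Ghigh group only. The labels do not say whether a library was made from 1 mouse or from pooled mice, so the p-values measure the spread between these libraries, which may be technical.

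NF-kB proteins are dimers that cytoplasmic IkB proteins hold out of the nucleus. Signals from Toll-like, interleukin-1 and tumor necrosis factor receptors activate the IKK kinase complex, IkB is degraded, and the freed dimers switch on inflammatory genes, among them the genes of their own inhibitors. In neutrophils this pathway is known for cytokine production and for prolonging survival, and the nuclear IkB proteins adjust which targets are transcribed.

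The self-limiting loop rests on κB sites in the promoters of the inhibitors. In RefSeq (GRCm38.p6), 7 of the 10 genes had promoter entries, with 12 windows of 250 bases before a transcription start. The κB consensus of 10 bases was searched on both strands, with overlapping matches counted once per start position, and was found in 8 of these 12 windows, belonging to 6 of the 7 genes. In all 32851 windows of the table it was found in 2382 (7.25%). The *Rela* window held no match, which says only that these letters are absent there. *Nfkb1*, *Relb* and *Nfkbiz* had no entry. The windows of 4 genes with contrasting patterns below, 3 inhibitors and a subunit, are printed with every match in capitals. They are *Nfkbia* (chr12:55492648-55492897, minus strand), *Tnfaip3* (chr10:19015411-19015660, minus strand), *Nfkbie* (chr17:45555450-45555699, plus strand) and *Rel* (chr11:23770970-23771219, minus strand), and each ends at the last base before the start. A match is a description of the sequence, and binding was not measured.
Nfkbia: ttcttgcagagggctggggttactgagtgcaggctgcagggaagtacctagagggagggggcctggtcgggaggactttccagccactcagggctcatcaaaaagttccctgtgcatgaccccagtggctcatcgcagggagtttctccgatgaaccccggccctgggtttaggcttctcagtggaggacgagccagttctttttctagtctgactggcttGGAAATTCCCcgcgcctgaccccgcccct
Tnfaip3: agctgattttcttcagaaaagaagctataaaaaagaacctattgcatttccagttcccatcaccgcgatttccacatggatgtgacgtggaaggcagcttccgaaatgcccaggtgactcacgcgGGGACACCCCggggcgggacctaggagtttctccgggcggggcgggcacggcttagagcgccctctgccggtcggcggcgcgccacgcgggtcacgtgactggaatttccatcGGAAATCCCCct
Nfkbie: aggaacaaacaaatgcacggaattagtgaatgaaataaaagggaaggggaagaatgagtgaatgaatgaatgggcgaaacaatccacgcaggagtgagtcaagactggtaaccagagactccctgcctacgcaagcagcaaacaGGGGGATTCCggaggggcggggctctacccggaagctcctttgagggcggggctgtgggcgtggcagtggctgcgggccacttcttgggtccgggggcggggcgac
Rel: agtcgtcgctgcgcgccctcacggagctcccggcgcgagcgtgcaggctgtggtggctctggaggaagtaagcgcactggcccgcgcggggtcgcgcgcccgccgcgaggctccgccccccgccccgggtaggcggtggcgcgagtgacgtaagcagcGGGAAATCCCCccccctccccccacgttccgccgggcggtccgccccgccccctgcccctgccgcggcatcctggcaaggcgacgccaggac
The *Nfkbia* match began 29 bases before the start, the *Tnfaip3* matches 125 and 12 bases before it, the *Nfkbie* match 106 bases before it, and the overlapping *Rel* matches 92 and 91 bases before it. All of these windows lie outside the transcribed part of their own gene. In the GENCODE annotation of GRCm38, the exons of *Nfkb2* alone among the 10 genes overlap those of another gene. *Psd* on the opposite strand shares 299 of 4584 exon bases and the noncoding RNA *AC114539.1* shares 531. How strand was used in counting is not given in the sources used here, so part of the *Nfkb2* count is uncertain.

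Total estimated counts ran from 15267177 to 17841807 per library, and library size was scaled by TMM factors of 0.803 to 1.32. Levels are given as CPM (counts scaled to an equal library size after TMM scaling) for a gene across libraries, and as the deposited FPKM, which corrects for length, to set genes side by side. *Ly6g* mRNA did not follow the sort, at 361.2 to 380.0 CPM in Ly6Ghi MACRO, 384.6 to 403.2 CPM in Ly6Glow MACRO and 117.8 to 120.2 CPM in Ly6Ghi NL. The summed level of 9 neutrophil markers was 18300 to 18500 CPM in Ly6Ghi NL, against 71000 to 72800 CPM in Ly6Ghi MACRO and 76300 to 78000 CPM in Ly6Glow MACRO. The NL libraries also carried more RNA of other lung cells. The 7 endothelial markers summed to 999 to 1080 CPM in NL against 146 to 151 and 181 to 187 CPM in the Ly6Ghi and Ly6Glow MACRO libraries, and the 8 epithelial markers to 1350 to 1480 CPM against 125 to 132 and 131 to 136 CPM. The 10 alveolar macrophage markers summed to 1100 to 1120 CPM in NL, 314 to 320 CPM in Ly6Ghi MACRO and 81.2 to 81.5 CPM in Ly6Glow MACRO. Their part in any difference below was not tested, and in bulk RNA fewer cells of a type and less RNA per cell cannot be told apart. NL replicate 2 stood apart from the other NL libraries, with a spread of counts 5.3 and 4.05 times the sampling variance, where every other pair within a group lay at 1.41 to 2.5.

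On TMM-scaled CPM the 10 genes followed a few profiles. *Nfkbia* and *Tnfaip3* were lowest in NL and highest in Ly6Glow MACRO, *Nfkbie* was highest in NL, and the remaining 7 genes were lowest in Ly6Ghi MACRO and highest in Ly6Glow MACRO. The direction of the NL comparisons depended on scaling for several of these genes, as given with each comparison.

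**Figure D1:**
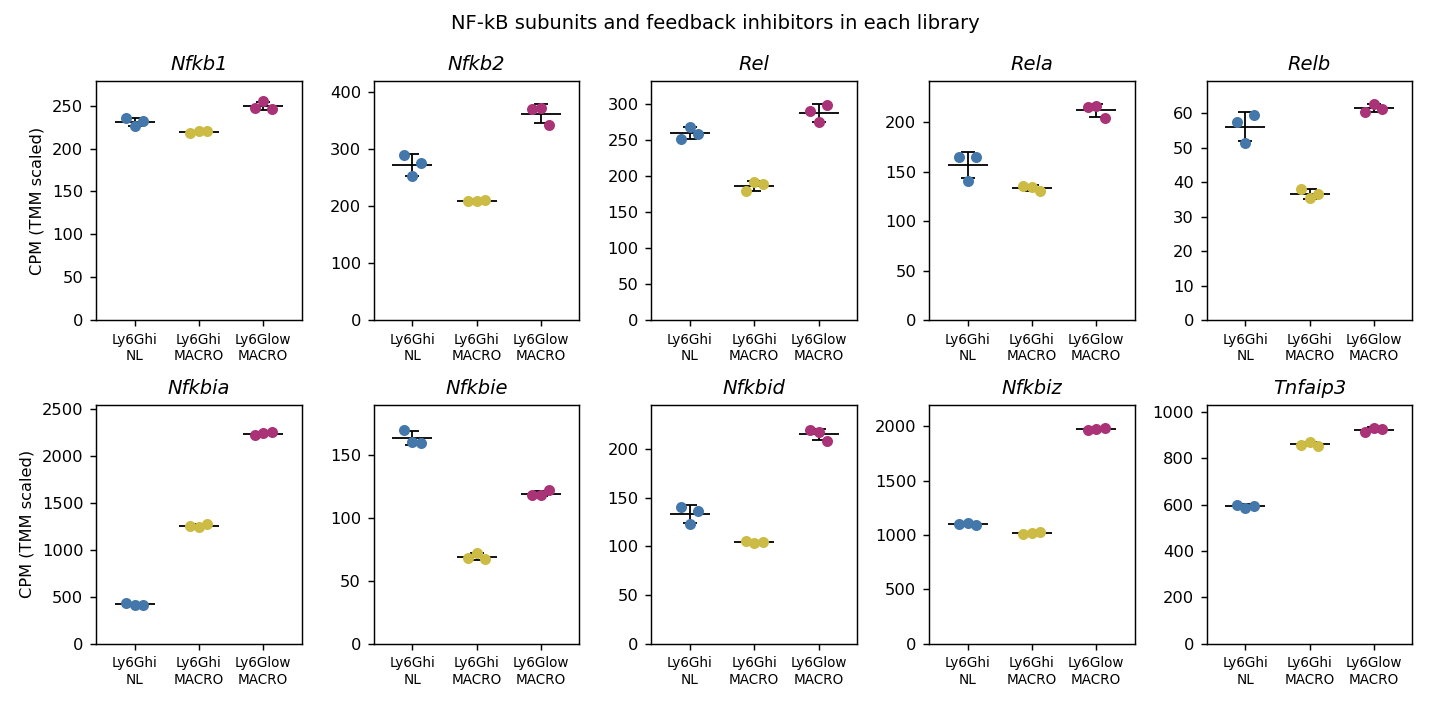
TMM-scaled CPM (linear axis from 0) of the 10 genes in each of the 9 libraries, with points for libraries and bars for the mean ± SD of 3. *Nfkbia* averages 419.0, 1253 and 2238 CPM in NL, Ly6Ghi MACRO and Ly6Glow MACRO, while most other genes are lowest in Ly6Ghi MACRO.

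Among the subunits, *Nfkb1*, which encodes the p105 precursor of p50, varied least. It had 235.8, 226.5 and 231.6 CPM in the NL libraries, 218.3, 220.7 and 220.1 CPM in Ly6Ghi MACRO and 247.6, 255.4 and 246.3 CPM in Ly6Glow MACRO. The groups did not overlap, but all lay within a narrow band. *Nfkb2*, which encodes the p100 precursor of p52 in the noncanonical branch, had 289.8, 251.7 and 275.9 CPM in NL, 208.7, 209.4 and 210.3 CPM in Ly6Ghi MACRO, and 370.2, 372.2 and 342.3 CPM in Ly6Glow MACRO. NL replicate 2 was the lowest NL library, and the Ly6Ghi MACRO libraries were nearly identical.

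*Rel*, a subunit gene of hematopoietic cells, had 250.8, 267.3 and 258.3 CPM in NL, 178.7, 191.1 and 188.5 CPM in Ly6Ghi MACRO and 289.5, 273.9 and 298.5 CPM in Ly6Glow MACRO. Its Ly6Ghi MACRO libraries stood well below the rest. *Rela*, the p65 subunit that carries the main activation domain, had 164.4, 140.9 and 164.4 CPM in NL, 135.1, 134.5 and 130.2 CPM in Ly6Ghi MACRO and 215.1, 216.1 and 203.9 CPM in Ly6Glow MACRO. NL replicate 2 came close to the Ly6Ghi MACRO range. *Relb*, the partner of p52, was the least abundant, with 57.56, 51.37 and 59.5 CPM in NL, 38.07, 35.29 and 36.63 CPM in Ly6Ghi MACRO, and 60.52, 62.67 and 61.35 CPM in Ly6Glow MACRO. The NL and Ly6Glow MACRO libraries of *Relb* lay side by side without overlap.

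*Nfkbia* encodes IkB-alpha, the inhibitor that is degraded and resynthesized in each round of activation. It had 433.6, 411.7 and 411.8 CPM in NL, 1249, 1238 and 1271 CPM in Ly6Ghi MACRO, and 2218, 2243 and 2253 CPM in Ly6Glow MACRO. The 3 groups formed widely separated tiers. *Nfkbie*, which encodes the related inhibitor IkB-epsilon, ran the other way between NL and tumor-bearing lung, with 170.3, 160.5 and 160.0 CPM in NL, 67.99, 72.18 and 67.22 CPM in Ly6Ghi MACRO and 118.2, 118.5 and 121.9 CPM in Ly6Glow MACRO. Every NL library exceeded every MACRO library.

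The nuclear IkB proteins shared a profile. *Nfkbid*, which encodes IkB-NS, had 140.6, 123.0 and 135.8 CPM in NL, 105.5, 103.5 and 104.6 CPM in Ly6Ghi MACRO and 219.2, 217.2 and 208.5 CPM in Ly6Glow MACRO. *Nfkbiz*, which encodes IkB-zeta, a coactivator of secondary response genes, was far more abundant, with 1100, 1115 and 1094 CPM in NL, 1013, 1020 and 1028 CPM in Ly6Ghi MACRO, and 1966, 1975 and 1982 CPM in Ly6Glow MACRO. For both genes the Ly6Glow MACRO libraries stood apart at the top. *Tnfaip3* encodes A20, a ubiquitin-editing enzyme that shuts off signaling above IKK. It had 600.3, 583.5 and 593.3 CPM in NL, 856.9, 870.2 and 854.5 CPM in Ly6Ghi MACRO and 912.8, 932.4 and 926.8 CPM in Ly6Glow MACRO. Its MACRO groups were close to each other and both were above NL.

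The first comparison asked how the Ly6Glow and Ly6Ghi neutrophils of macrometastatic lung differ. Of the 10 genes, 8 rose in Ly6Glow MACRO over Ly6Ghi MACRO and none fell, where a call needed an adjusted p of at most 0.05 (edgeR's quasi-likelihood test, Benjamini-Hochberg over 14108 genes) and an absolute log2 fold change above 0.58. Over all tested genes 25.2% were called, 9.29% as higher and 15.9% as lower. The median log2 fold change was 0.77 over the 10 genes, 0.67 over the 5 subunits and 0.84 over the 5 other genes, beside -0.04 over all genes tested. For each of the 10 genes every Ly6Glow MACRO library exceeded every Ly6Ghi MACRO library, and 62.1% of all genes tested were likewise without overlap in one direction or the other.

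Nuclear IkB genes led, with *Nfkbid* 2.06-fold higher (log2 fold change 1.04, SE 0.045, edgeR adjusted p = 1.78e-14) and *Nfkbiz* 1.94-fold higher (0.95, SE 0.027, adjusted p = 1.86e-17). Both cytoplasmic inhibitors rose by a like amount. *Nfkbia* was 1.79-fold higher (log2 fold change 0.84, SE 0.029, edgeR adjusted p = 5.08e-16) and *Nfkbie* 1.73-fold higher (0.79, SE 0.044, adjusted p = 1.23e-12). Of the subunits, *Nfkb2* (1.73-fold), *Relb* (1.68-fold), *Rela* (1.59-fold) and *Rel* (1.54-fold) rose, with edgeR adjusted p from 1.78e-12 to 4.53e-10. *Nfkb1* and *Tnfaip3* stayed under the threshold, with 0.19 on the log2 scale (SE 0.034, edgeR adjusted p = 6.95e-05) and 0.10 (SE 0.029, adjusted p = 0.00416). On FPKM the sign of these last genes turned, to -0.052 for *Nfkb1* and -0.13 for *Tnfaip3*, while the 8 others stayed positive under every setting tried, with 3 of them (*Nfkbia*, *Nfkbid* and *Nfkbiz*) above the threshold on FPKM, where 13.1% of all genes were called, 1.84% higher and 11.2% lower. On that scale the median of all genes of at least 1 FPKM in 3 libraries lay at -0.19, and with it set to 0, *Nfkbid* was at 0.98, *Nfkbiz* at 0.90, *Nfkbia* at 0.79 and *Rel*, the lowest of the 8, at 0.57.

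The dissociation stress genes, which respond to tissue digestion, summed to 10100 to 10200 CPM in Ly6Ghi MACRO and 11900 to 12400 CPM in Ly6Glow MACRO. Of the 14 genes in that list 4 were called higher and 3 lower, and their part in the rise of the NF-kB genes was not tested. Several lists of other leukocytes were lower in Ly6Glow MACRO. T cell markers summed to 52.0 to 54.0 and 38.1 to 41.2 CPM in Ly6Ghi and Ly6Glow MACRO, B cell markers to 65.3 to 66.9 and 35.5 to 39.3 CPM, and NK cell markers to 10.5 to 11.6 and 4.68 to 5.31 CPM. Eosinophil markers summed to 79.1 to 85.2 and 35.7 to 37.4 CPM in the same order, and basophil and mast cell markers to 43.1 to 45.0 and 25.1 to 28.7 CPM. The monocyte and macrophage markers overlapped, at 485 to 495 and 479 to 497 CPM. The part of these cells was not tested.

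**Figure D2:**
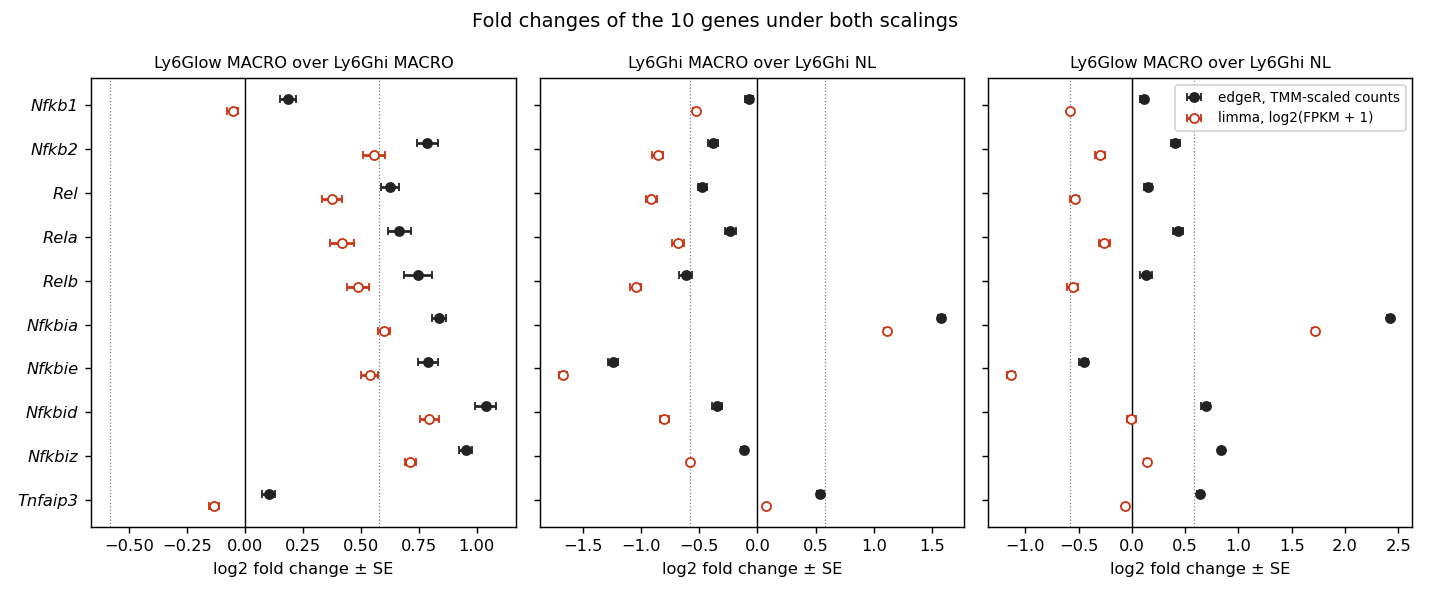
Log2 fold changes (x axis, ± SE) of the 10 genes in the 3 comparisons from edgeR on TMM-scaled counts (filled) and limma on log2(FPKM + 1) (open), with dotted lines at the threshold of 0.58 either side of 0. FPKM values lie lower throughout, yet *Nfkbia* stays positive in all 3 panels and *Nfkbie* stays below 0 in both comparisons with NL.

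The second comparison set Ly6Ghi neutrophils of macrometastatic lung against those of normal lung. *Nfkbia* rose, and *Nfkbie* and *Relb* fell. These 3 of 10 genes called compare with 62.9% of all tested genes, 26.3% higher and 36.6% lower, and the order of these shares turned on FPKM as given below. The median log2 fold change was -0.29 over the 10 genes and -0.09 over all genes tested. Again no gene of the 10 had overlapping libraries, as for 85.2% of all genes.

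*Nfkbia* was 2.99-fold higher in Ly6Ghi MACRO (log2 fold change 1.58, SE 0.030, edgeR adjusted p = 1.73e-21). *Nfkbie* was 2.37-fold lower (log2 fold change -1.24, SE 0.042, edgeR adjusted p = 2.38e-17), so that the 2 cytoplasmic inhibitors moved in opposite directions. *Relb* was 1.53-fold lower (log2 fold change -0.62, SE 0.057, edgeR adjusted p = 1.38e-09), just past the threshold, and its call was lost without NL replicate 3 (-0.57) and with the median of all genes set to 0 (-0.53). Under the threshold lay *Tnfaip3* at 0.54 and, with negative log2 fold changes, *Rel* at -0.48, *Nfkb2* at -0.38, *Nfkbid* at -0.35, *Rela* at -0.23, *Nfkbiz* at -0.11 and *Nfkb1* at -0.07, all with edgeR adjusted p from 9.06e-14 to 0.0417. *Rel* was called lower with upper-quartile factors (-0.67) and with at least 10 counts in every library (-0.65).

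The size of these differences depended on scaling. On FPKM the median of all genes of at least 1 FPKM in 3 libraries lay at -0.33. Of the 10 genes 7 were called on FPKM, 1 higher (*Nfkbia*, at 1.11) and 6 lower (*Nfkb2*, *Rel*, *Rela*, *Relb*, *Nfkbie* and *Nfkbid*, at -0.68 to -1.67), with *Tnfaip3* at 0.07. On that scale 38.4% of all genes were called, 8.36% higher and 30.0% lower. Relative to that median *Nfkbia* was at 1.45, *Nfkbie* at -1.34 and *Relb* at -0.71. The lower neutrophil sum and the higher endothelial, epithelial and alveolar macrophage sums of the NL libraries, given above, moved with this comparison, and so did the 6 fibroblast markers, at 518 to 549 CPM in NL and 49.8 to 57.4 CPM in Ly6Ghi MACRO. Of the 14 dissociation stress genes 5 were called higher and 6 lower. The part of all these lists in the NF-kB differences was not tested.

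The third comparison set Ly6Glow MACRO against Ly6Ghi NL, which differ in both the sort and the lung, so that those 2 factors cannot be told apart in it. It shares its groups with the comparisons above and is therefore not independent of them. Of the 10 genes 4 rose, none of them a subunit, and none fell, beside 69.5% of all genes called, 28.7% higher and 40.8% lower. The median log2 fold change was 0.42 over the 10 genes, 0.15 over the subunits and -0.16 over all genes tested. No gene of the 10 had overlapping libraries, as for 86.8% of all genes.

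*Nfkbia* was 5.34-fold higher in Ly6Glow MACRO than in NL (log2 fold change 2.42, SE 0.031, edgeR adjusted p = 2.67e-24). *Nfkbiz* was 1.79-fold higher (0.84, SE 0.027, edgeR adjusted p = 8.82e-18), *Nfkbid* 1.61-fold (0.69, SE 0.043, adjusted p = 1.55e-12) and *Tnfaip3* 1.56-fold (0.64, SE 0.029, adjusted p = 3.47e-15). *Nfkbie* lay under the threshold at -0.45 on the log2 scale (SE 0.040, edgeR adjusted p = 7.2e-10), and the 5 subunits had values from 0.11 for *Nfkb1* to 0.43 for *Rela*. With upper-quartile factors and with at least 10 counts in every library, *Nfkbid* (0.50 and 0.51) and *Tnfaip3* (0.45 and 0.46) lost their calls and *Nfkbie* (-0.64 and -0.64) was called lower. On FPKM the median of all genes of at least 1 FPKM in 3 libraries lay at -0.56. *Nfkbia* at 1.71 and *Nfkbie* at -1.13 were called on FPKM, beside 44.2% of all genes, 6.56% higher and 37.7% lower. *Nfkbiz* stood at 0.14 there, *Nfkbid* and *Tnfaip3* turned to -0.0045 and -0.061, and the 5 subunits turned to values from -0.26 to -0.58. The direction in Ly6Glow MACRO over NL thus held under every setting for *Nfkbia*, *Nfkbie* and *Nfkbiz* alone. In Ly6Ghi MACRO over NL it held for 9 of the 10 genes, all but *Nfkb1*.

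Ratios within a library do not depend on library scaling, so the balance of the 10 genes was also read from the deposited FPKM. *Nfkbia* took up 24.6, 24.4 and 23.9% of the summed FPKM of the 10 genes in the NL libraries, 51.1, 50.6 and 51.4% in Ly6Ghi MACRO, and 53.5, 53.7 and 54.1% in Ly6Glow MACRO. Both MACRO groups thus had about the same share, well above NL, while the share of *Nfkbie* was 6.08 ± 0.12% in NL (SD, n = 3) against 1.81 ± 0.077% in Ly6Ghi MACRO and 1.84 ± 0.032% in Ly6Glow MACRO. *Nfkbia* over *Nfkbie* was 3.97, 4.0 and 4.02 in NL, 28.7, 26.8 and 29.5 in Ly6Ghi MACRO and 29.3, 29.6 and 28.8 in Ly6Glow MACRO. The MACRO groups overlapped in this ratio, and both lay far from NL.

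The summed inhibitors *Nfkbia*, *Nfkbie* and *Tnfaip3* came to 1.76 ± 0.068 times the summed subunits in NL, 4.76 ± 0.053 times in Ly6Ghi MACRO and 5.17 ± 0.15 times in Ly6Glow MACRO (SD, n = 3). *Nfkbia* over *Rela* was 4.33 ± 0.35, 15.1 ± 0.52 and 17.1 ± 0.66 in the same order, and neither ratio had overlapping libraries between groups. Other ratios set Ly6Glow MACRO apart. *Nfkbiz* over *Nfkb1* was 5.13 ± 0.13 in NL and 4.99 ± 0.029 in Ly6Ghi MACRO, against 8.5 ± 0.16 in Ly6Glow MACRO. *Nfkb2* over *Nfkb1*, the precursors of the noncanonical and canonical partners, was 1.54, 1.38 and 1.49 in NL, 1.17, 1.16 and 1.17 in Ly6Ghi MACRO and 1.85, 1.8 and 1.71 in Ly6Glow MACRO. *Relb* over *Rela* was 0.412 ± 0.0083 in NL and lower in both MACRO groups, at 0.312 ± 0.013 and 0.332 ± 0.013. *Tnfaip3* held 12.1 ± 0.11% of the summed FPKM in NL and 12.3 ± 0.18% in Ly6Ghi MACRO, but 7.8 ± 0.051% in Ly6Glow MACRO. These ratios are descriptions without a test.

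**Figure D3:**
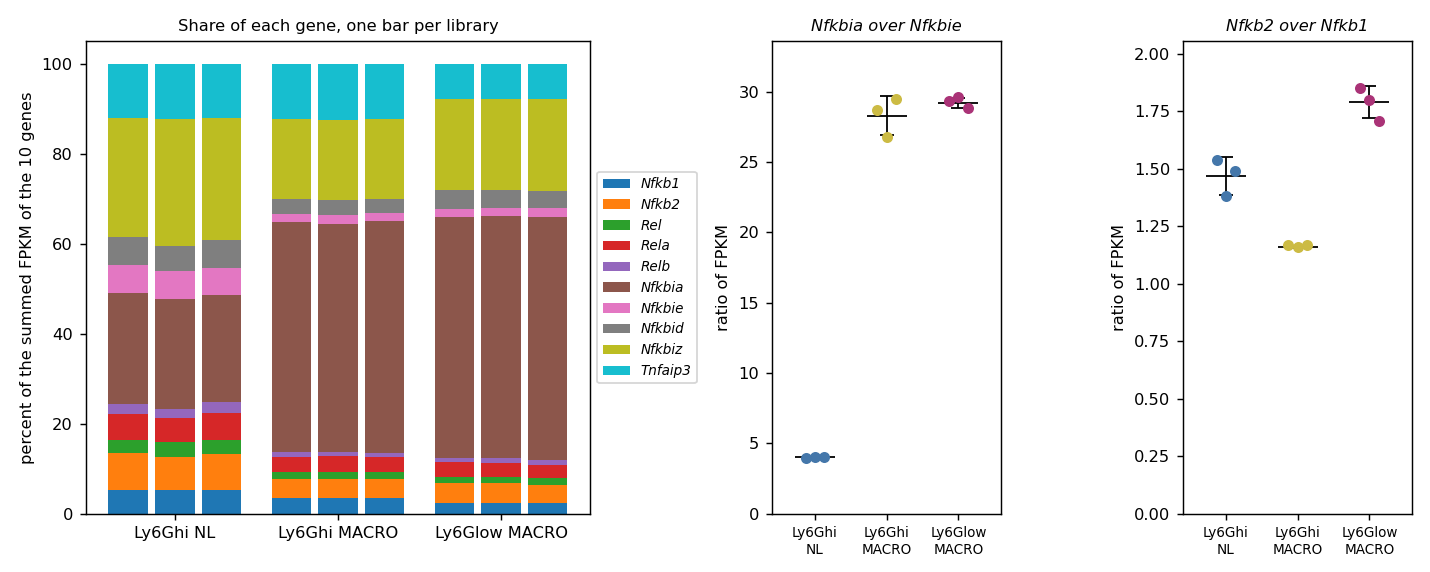
Left, percent of the summed FPKM of the 10 genes held by each gene, 1 bar per library. Right, the FPKM ratios of *Nfkbia* to *Nfkbie* and of *Nfkb2* to *Nfkb1* (linear axes from 0, points for libraries, bars for mean ± SD of 3). *Nfkbia* fills about 24% of the NL bars and over 50% of the MACRO bars, and the first ratio averages 4.0 in NL and 28.3 and 29.2 in the Ly6Ghi and Ly6Glow MACRO groups.

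By FPKM the order of the genes changed at the top. In NL, *Nfkbiz* led at 403.1 ± 7.79, above *Nfkbia* at 358.3 ± 8.31 and *Tnfaip3* at 178.1 ± 0.771 (SD, n = 3). In Ly6Ghi MACRO, *Nfkbia* led at 776.3 ± 11.6, followed by *Nfkbiz* at 270.2 ± 2.89 and *Tnfaip3* at 187.4 ± 2.01. In Ly6Glow MACRO the same order held, at 1178 ± 9.03, 443.9 ± 1.79 and 170.7 ± 1.55. *Nfkb2* was the most abundant subunit in each group, at 115.2 ± 7.31 in NL, 63.09 ± 0.427 in Ly6Ghi MACRO and 93.3 ± 4.46 in Ly6Glow MACRO, and *Rel* and *Relb* were the lowest genes in each. *Nfkbie* moved from rank 5 in NL, at 89.61 ± 2.59, to rank 8 in both MACRO groups, at 27.45 ± 1.08 and 40.29 ± 0.748. Neighbors whose libraries overlapped were *Nfkbie* with *Nfkbid*, *Nfkbid* with *Rela* and *Rela* with *Nfkb1* in NL, *Rela* with *Nfkbid* in Ly6Ghi MACRO, and *Nfkb2* with *Nfkbid* in Ly6Glow MACRO. All other neighbors were separated.

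How alike 2 genes varied was measured as the Euclidean distance between their centered log2(CPM + 1) values over the 9 libraries. Among the 10 genes the closest were *Nfkb2* and *Rela* (0.212), *Rel* and *Relb* (0.325), and *Nfkbid* and *Nfkbiz* (0.335), and the farthest were *Nfkbia* and *Nfkbie* (4.01). Among 7398 genes of at least 10 mean CPM, those nearest to *Nfkbia* were *Rufy4* (0.0899), *Tarm1* (0.191) and *Igfbp6* (0.193). *Rufy4* had 19.24, 61.48 and 108.3 CPM on average in NL, Ly6Ghi MACRO and Ly6Glow MACRO. Nearest to *Nfkb1* were *Traf3* (0.0926), which encodes an adaptor that restrains noncanonical signaling, *Numa1* (0.1) and *Nfx1* (0.108), and *Traf3* had 81.4, 76.51 and 86.34 CPM. The libraries share depth and group, so these distances describe patterns only.

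The other genes of the pathway were read from 5 lists of 110 genes in all, each of which was tested. In Ly6Glow MACRO over Ly6Ghi MACRO 36 were higher and 7 lower. In Ly6Ghi MACRO over NL 29 were higher and 31 lower, and in Ly6Glow MACRO over NL 54 were higher and 24 lower. The percentages called over all genes, given above, apply to these counts too. On FPKM, tested with limma, the split moved to 22 higher and 10 lower, 11 and 41, and 17 and 37 in the same order, so that the majority of calls in Ly6Glow MACRO over NL turned. The percentages of all genes called on FPKM, also given above, apply there. Of the genes called on TMM in that comparison, 7 changed sign on FPKM, and they are named below for that, after their values were seen.

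Of the 12 genes of the IKK complex and upstream kinases, 1 was higher in Ly6Glow over Ly6Ghi MACRO and none lower (median log2 fold change 0.21, but -0.024 on FPKM). That gene was *Map3k14*, the NIK kinase of the noncanonical branch, with 38.85, 35.73 and 37.17 CPM in NL, 53.88, 52.01 and 52.28 CPM in Ly6Ghi MACRO and 88.86, 90.29 and 86.54 CPM in Ly6Glow MACRO. Between the MACRO groups it rose by 0.75 on the log2 scale (SE 0.047, edgeR adjusted p = 8.53e-12). Its kinase drives the processing of p100, the product of *Nfkb2*. The IKK subunit genes had small values in that comparison, 0.19 for *Chuk*, 0.11 for *Ikbkb* and 0.13 for *Ikbkg*, which turned to -0.048, -0.10 and -0.091 on FPKM. Against NL, 5 genes of the list were higher in Ly6Ghi MACRO and 8 in Ly6Glow MACRO and none lower, with list medians of 0.53 and 0.70 that came to 0.071 and 0.001 on FPKM. Of the 8, *Ikbkb* and *Tbk1* turned to -0.11 and -0.057 there. *Ikbkg*, the regulatory subunit NEMO, was at 0.96 and 1.09 in the same comparisons (edgeR adjusted p = 2.63e-14 and 3.01e-15).

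Further IkB family genes also had higher levels in Ly6Glow MACRO than in either other group. *Nfkbib*, which encodes IkB-beta, had 37.96 ± 2.56 CPM in NL, 55.5 ± 0.794 CPM in Ly6Ghi MACRO and 83.67 ± 1.87 CPM in Ly6Glow MACRO, and *Bcl3*, a nuclear IkB protein, had 140.1 ± 17.6, 175.0 ± 2.8 and 266.1 ± 9.22 CPM (SD, n = 3). Between the MACRO groups both passed the threshold narrowly, at log2 fold changes of 0.59 and 0.61 (edgeR adjusted p = 1.38e-09 and 1.26e-08). Of the 19 other inhibitors and modulators that include them, 6 were higher and 2 lower in that comparison, 8 and 1 in Ly6Ghi MACRO over NL, and 15 and 2 in Ly6Glow MACRO over NL. The median of the list in Ly6Ghi MACRO over NL was 0.36, but -0.091 on FPKM, and of the genes called in Ly6Glow MACRO over NL, *Zc3h12a* and *Tollip* turned to -0.11 and -0.10 there. Named by size of change, *Rnf11* (0.82) and *Zc3h12a* (0.71), the latter encoding the RNase Regnase-1, were higher and *Commd1* (-0.99) lower in Ly6Glow MACRO over Ly6Ghi MACRO, and the ubiquitin ligase gene *Itch* was higher in Ly6Ghi MACRO (1.48) and Ly6Glow MACRO (1.73) than in NL.

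Among the 19 receptors, 8 were higher and 2 lower in Ly6Glow over Ly6Ghi MACRO (median 0.52), led by *Cd14*, the lipopolysaccharide co-receptor (log2 fold change 1.30, edgeR adjusted p = 4.4e-18), and *Tnfrsf1b*, tumor necrosis factor receptor 2 (1.10, adjusted p = 2.23e-16). Against NL the receptors split on TMM, with 5 higher and 5 lower in Ly6Ghi MACRO (median -0.29, and -0.76 on FPKM). In Ly6Glow MACRO over NL 9 were higher and 5 lower (median 0.53, but -0.17 on FPKM). *Tlr1* was higher in both Ly6Ghi and Ly6Glow MACRO (1.00 and 1.91). So were *Tlr13* (1.07 and 1.82) and *Il1rap*, the co-receptor of the interleukin-1 receptor (0.79 and 1.88). *Il1r1* (-2.39 and -2.16) and *Cd40* (-2.11 and -2.40) were lower in both, from 17.4 and 10.6 CPM in NL. On FPKM *Il18r1* and *Nod2*, called higher in Ly6Glow MACRO, turned to -0.074 and -0.030. Among the 24 adaptors and ubiquitin ligases 3 were higher and 2 lower between the MACRO groups, with *Traf1* at 0.98 and *Irak2* at 0.80. Against NL, 7 and 9 were higher and 5 and 5 lower in Ly6Ghi and Ly6Glow MACRO, with *Irak4* at 1.60 and 1.71 and *Card9* at 1.55 and 1.75. The adaptor medians were 0.099, 0.088 and 0.17 in the 3 comparisons, and -0.12, -0.35 and -0.46 on FPKM, where *Rnf31*, called higher in Ly6Glow MACRO over NL, turned to -0.052.

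Of the 36 target genes, 18 were higher and 1 lower in Ly6Glow over Ly6Ghi MACRO (median log2 fold change 0.56). The list holds genes whose differences in these libraries were known when it was written, so its count is no independent evidence. Among called genes of at least 10 CPM the largest increases were *Nos2*, inducible nitric oxide synthase (1.34), *Bcl2l1*, the survival gene of BCL-XL (1.32), and *Ptgs2*, the cyclooxygenase COX-2 (1.28), with edgeR adjusted p of 1.16e-16 or below, and *Cd83* was lower (-0.97). In Ly6Ghi MACRO over NL only 4 were higher and 20 lower (median -0.70). *Saa3* (4.56), *Nos2* (3.10) and *Lcn2* (2.62) were higher, while *Cxcl10* (-3.06), *Vcam1* (-2.86) and *Icam1* (-2.20) were lower. *Icam1* had 431.7, 408.0 and 428.7 CPM in NL and 93.17, 91.46 and 92.12 CPM in Ly6Ghi MACRO. Endothelial cells also make *Icam1* and *Vcam1*, and their markers were higher in NL as given above, with the part of those cells not tested. In Ly6Glow MACRO over NL 13 target genes were higher and 12 lower (median 0.13, but -0.56 on FPKM).

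**Figure D4:**
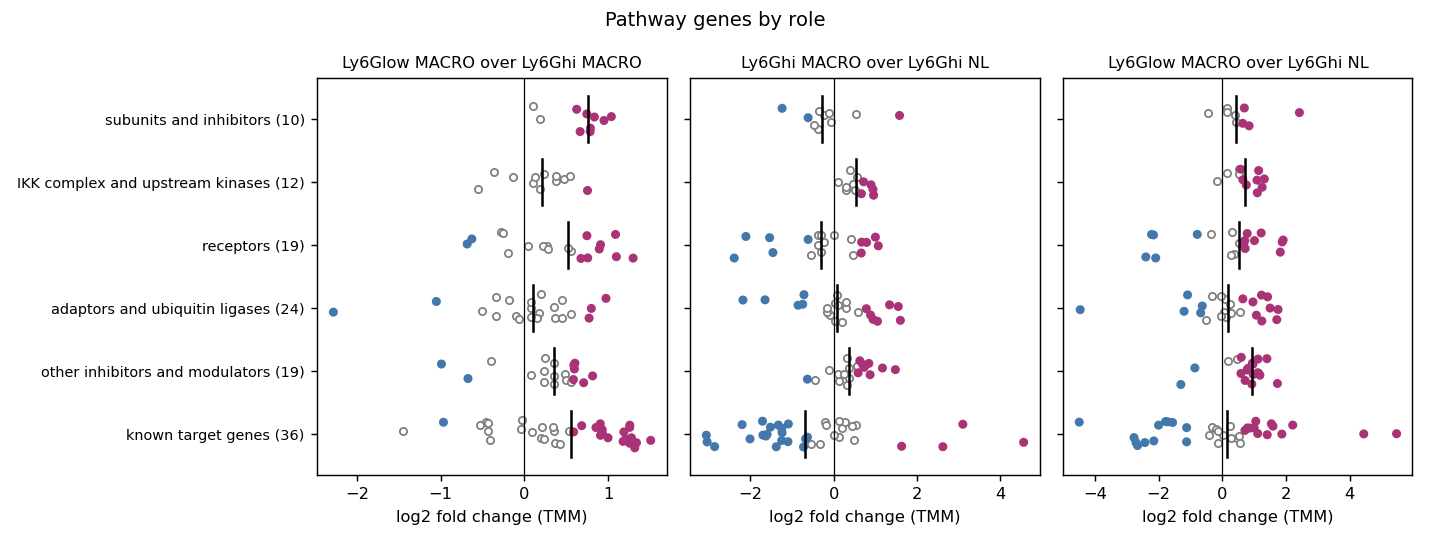
Log2 fold changes (x axis, TMM-scaled edgeR) of the 10 genes and of the 5 pathway lists (number of genes in brackets), 1 point per gene, filled where called (purple higher, blue lower), with the vertical bar at the list median. Target genes sit to the right between the MACRO groups (median 0.56) and to the left in Ly6Ghi MACRO over NL (median -0.70).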

How the data were processed

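The authors deposited estimated counts for every gene, which are not normalized and of which 37.9% were whole numbers. The authors also deposited FPKM, scaled for transcript length and mapped fragments. The submitters' processing notes name mm10, and the aligner and counter are not given in the sources used here. Counts were rounded and fitted in R 4.3.3 with edgeR 4.0.16 (TMM, filterByExpr by group, quasi-likelihood F test, 1 model of the 9 libraries, Benjamini-Hochberg over 14108 genes). The 0.58 fold threshold follows the study, which names DESeq2. An SE is the log2 fold change divided by the square root of F. The model was tested on simulated data. Alternatives were DESeq2 1.42.0, limma 3.58.1 on log2 FPKM, other size factors, filters and thresholds, and leaving out each library. Median-centered FPKM and ratios between member genes were added after seeing the data.

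The 10 genes and all lists were chosen with earlier results of these data known. Named were all 10 genes, per pathway list the called genes of largest change without overlap and with at least 10 CPM (up to 3 a direction for targets, up to 2 otherwise), Chuk, Ikbkb, Ikbkg, Map3k14, Bcl3 and Nfkbib, and the 3 genes nearest to Nfkb1 and Nfkbia. One gene that this rule names is not reported here. The biological coefficient of variation was 0.0453 (median of the trend). With 3 libraries a side an exact permutation test cannot go below 0.1, so none was used. Proteins and genomic sequence beyond the RefSeq promoter table were not used here.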

Additional observations from a re-analysis of the deposited data

How the results depend on the processing

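Of the 10 genes, 8 stayed called in Ly6Glow over Ly6Ghi MACRO, 2 to 3 in Ly6Ghi MACRO over NL and 4 in Ly6Glow MACRO over NL when any 1 library was left out, and the loss was that of Relb without NL replicate 3. For the other pathway genes these ranges were 39 to 46, 59 to 62 and 77 to 79. With DESeq2 the counts were 8, 3 and 4. Replicate numbers did not pair libraries across groups (correlations of deviations from -0.0683 to 0.0766, and 1 of 9 libraries best matched its own number), and with a replicate block the counts of the 10 genes were 8, 3 and 4.

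Without a fold threshold 10 genes were called in each of the 3 comparisons, and 93 and 101 pathway genes in the first and second comparison. Of all 14108 genes tested, 7868, 11930 and 12246 were called without it in the 3 comparisons. With a threshold of 1 the counts were 1 for the first comparison (Nfkbid) and 1 for the third (Nfkbia). In the second, Nfkbia (1.58) and Nfkbie (-1.24) passed that threshold. For pathway genes the counts were 16 and 35 in the first and second. At that threshold 1305, 6012 and 7085 of all genes tested were called in the 3 comparisons. On FPKM, with either pseudocount or a minimum of 1, the first comparison had 3 called and the second 7. The third had 2 with a pseudocount of 1 and with the minimum of 1 (Nfkbia and Nfkbie), and with a pseudocount of 0.1 Nfkb1 (-0.59) also passed the fold threshold. With the median of all genes set to 0 its 2 were Nfkbia (2.28) and Nfkbiz (0.70), as Nfkbie (-0.57) fell under the threshold. With it set to 0, Nfkb2 (0.75), Rela (0.61), Relb (0.68) and Nfkbie (0.73) also passed in the first comparison. In the second only Nfkbia, Nfkbie and Relb then passed. Setting a median to 0 moved the fold changes only, and the p-values stayed those of the unshifted fit. All genes called higher and lower in the first comparison were 1310 and 2250 on TMM but 317 and 1927 on FPKM, 3712 and 5162 against 1436 and 5162 in the second, and 4049 and 5760 against 1128 and 6473 in the third.

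Values that changed sign, given for a pseudocount of 1, for 0.1 and for a minimum of 1, were in Ly6Glow over Ly6Ghi MACRO Nfkb1 (-0.052, -0.053, -0.052) and Tnfaip3 (-0.13, -0.13, -0.13). In Ly6Glow MACRO over NL they were Nfkb1 (-0.58, -0.59, -0.58), Nfkb2 (-0.30, -0.30, -0.30), Rel (-0.54, -0.55, -0.54), Rela (-0.26, -0.26, -0.26), Relb (-0.56, -0.57, -0.56), Nfkbid (-0.0045, -0.0045, -0.0045) and Tnfaip3 (-0.061, -0.061, -0.061). With upper-quartile factors and with at least 10 counts in every library, Nfkb1 (-0.079, -0.072), Rel (-0.040, -0.033) and Relb (-0.058, -0.051) also turned there. With medians of all genes set to 0, Nfkb1 was -0.016 in that comparison on FPKM and 0.014 in Ly6Ghi MACRO over NL on TMM. These settings differ in how libraries are scaled, and the cause of the difference between them was not tested. Depth was not limiting for the 10 genes, the least abundant of which had 35.29 CPM.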
